A study of Rattus norvegicus with 4 samples.

Results

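The DNA replication machinery of rat embryonic stem cells (ESCs) was examined as a set of 43 genes, chosen by gene symbol. The rule took the symbols of the MCM, ORC, GINS, primase, RFC and RPA families, of DNA polymerases alpha, delta and epsilon, and of *Pcna*, *Cdc6*, *Cdc45* and *Cdt1*. These are 43 of the 34773 genes in the deposited table, and all 43 were among the 15028 genes with enough counts to be tested. Poly(A) RNA had been sequenced from 4 libraries of ESCs. The 1 WT library came from the line that the study calls DA-5-3GFP, which is DA-5-3 carrying a GFP reporter behind *Rex1*. The 3 Thop1-KO libraries came from subclones #1, #2 and #3, each derived from DA-5-3GFP cells in which Cas9 had been directed at *Thop1* by sgRNA vectors with puromycin selection, so that each library stands for 1 subclone and all 4 carry the reporter. The study's methods describe culture on feeder cells with the inhibitors PD0325901 and CHIR99021 and with LIF (2i/LIF). Its text gives DA-5-3 as diploid, whereas the deposited description speaks of haploid cells. WT has no replicate, so the spread behind every test came from the subclones alone, and the genotype cannot be told apart from anything else that set the single WT culture or library apart.

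Before a cell copies its DNA, the origin recognition complex (ORC) marks the start sites, and Cdc6 and Cdt1 load the ring-shaped MCM helicase there. Cdc45 and the GINS complex turn the ring into an active helicase, primase with polymerase alpha lays down the first stretches, and polymerases epsilon and delta extend them. The clamp PCNA, placed by the clamp loader RFC, holds the polymerases on DNA, and RPA coats the single strands that the helicase opens. ESCs divide rapidly and spend much of their cycle copying DNA, and many of these genes are known targets of the E2F transcription factors.

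The counts on genes summed to between 15405499 and 17936544 a library. *Thop1*, the targeted gene, had 370.1 CPM in WT and 109.9, 92.5 and 149 in subclones #1, #2 and #3, where CPM are counts scaled to library size after TMM normalization, a log2 fold change of -1.66 (SE 0.29, edgeR adjusted p = 0.0187, from a quasi-likelihood fit adjusted over all genes by Benjamini-Hochberg). All 7 tested ESC markers were present in every library. *Pou5f1* was at 4794 CPM in WT and 4842, 3889 and 4776 in the subclones and *Nanog* at 468 CPM in WT and 334, 494 and 384 in the subclones, and *Tdgf1* like these had WT inside the range of the subclones. *Utf1* (log2 fold change -1.51, edgeR adjusted p = 0.0206) and *Dppa5* (-1.02, edgeR adjusted p = 0.036) fell. *Lin28a* had WT above all subclones and *Sox2* had it below them, without passing the test. Of 12 fibroblast markers in the table, 9 were tested, 2 (*Col5a2* and *Fn1*) were called higher in Thop1-KO, and *Thy1*, *Lum* and *Dcn* had no count in any library. The summed level of the 9 tested fibroblast genes was 1949 CPM in WT and between 4296 and 4769 CPM in the subclones, most of it *Fn1*. All 9 had a log2 fold change above 0. In 8 of them WT lay below all subclones, beside 38.1% of all genes tested. The summed levels of tested markers in WT and in the subclones were 7964 and 5786 to 6973 CPM for ESCs, 2.56 and 4.95 to 7.39 for primitive endoderm and 169 and 217 to 445 for trophoblast. Most of the trophoblast sum was *Tfap2c*, while *Cdx2* was at 24.3 CPM in WT and 3.34, 35.9 and 4.95 in the subclones. In primitive endoderm 4 tested genes had a log2 fold change above 0, and *Gata4* went the other way, at 1.14 CPM in WT and 0.179, 0 and 0.167 in the subclones. Of 3 neural and mesoderm markers in the table, *Nes* alone had enough counts to be tested, at 8.48 CPM in WT and 0.358, 0.735 and 0.167 in the subclones (log2 fold change -4.31, edgeR adjusted p = 0.0147), and *Pax6* and *Mixl1* had no count. The part of these shifts in the results was not tested.

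The genes of the replication machinery did not move as 1 block. Of the 43, 5 fell in Thop1-KO and 0 rose, judged by an edgeR quasi-likelihood p that stayed under 0.05 after adjustment. The genes that fell were *Orc2* and *Orc5* of the origin recognition complex, *Pold3* of polymerase delta, the clamp gene *Pcna* and the clamp loader gene *Rfc1*. They are 11.6% of the members, beside 5.17% of all genes tested that were called lower, while 8.62% of all genes tested were called higher. At an unadjusted p-value under 0.05, 13 members were lower and 5 higher in Thop1-KO (30.2% and 11.6%), where 14.9% of all genes tested were lower and 19.1% higher. The median log2 fold change was -0.33 over the members and 0.06 over all genes tested. DESeq2's Wald test called 7 members lower and 2 higher, and limma on log2(FPKM + 1) called 2 lower and 0 higher. Over all genes DESeq2 called 1019 lower and 1987 higher and limma 879 and 1029, where edgeR called 777 and 1295. These counts rest on which subclones enter: edgeR called 2 lower and 0 higher without #1, 15 lower and 5 higher without #2, and 0 in either direction without #3. The counts over all genes moved as well, to 710 lower and 1312 higher without #1, 2476 and 3096 without #2, and 103 and 354 without #3. In each of the 5 genes the largest adjusted p-value over the alternatives was the one without #3. In bulk libraries, fewer cells of a kind and less RNA per cell cannot be told apart.

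In 25 of the 43 genes (58.1%) the single WT library exceeded every subclone, in 12 (27.9%) it was the lowest library, and in 6 it was inside the range of the subclones. Over all genes tested WT lay above all 3 subclones in 37.6% and below them in 38.1%. The log2 fold changes of the members ran from -1.53 for *Pola1* to 1.25 for *Mcm9*, with standard errors between 0.21 and 0.49. An exact permutation of 1 library against 3 cannot reach a p-value under 0.25, so the adjusted p-values depend on how edgeR models the variance. The 10 members with the shortest exons had a median log2 fold change of -0.64 and the 10 with the longest one of 0.16, and with a correction for gene length the median over the members was -0.57.

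**Figure D1:**
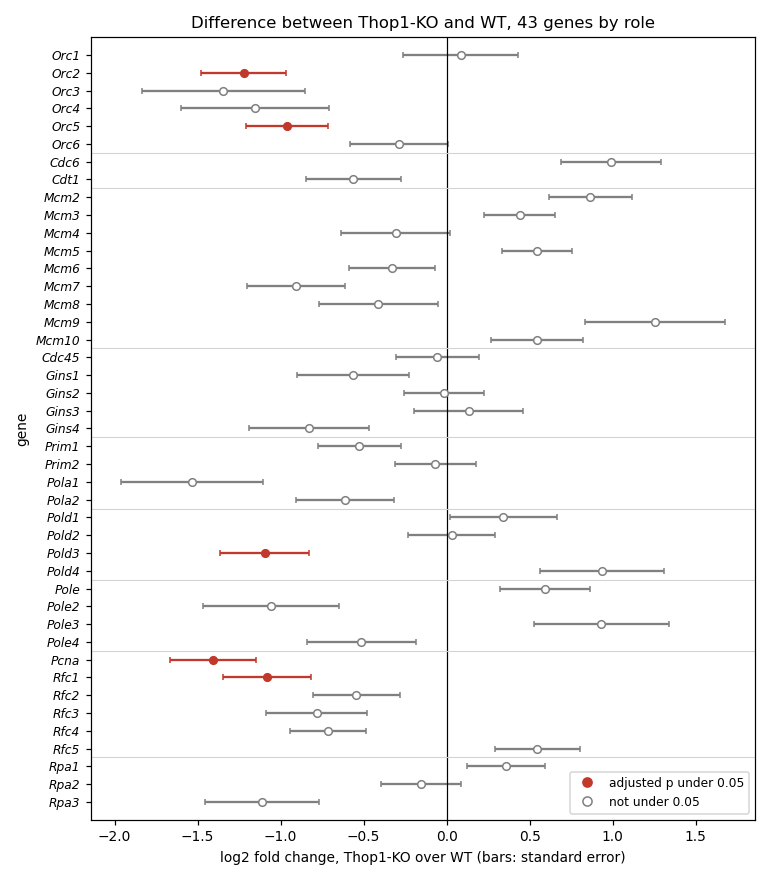
Log2 fold change of each of the 43 genes, Thop1-KO over WT (x axis), with genes on the y axis grouped by role and bars of 1 standard error from edgeR. The 5 filled points are the genes with an adjusted p-value under 0.05, all of them left of 0, and members of most complexes lie on both sides of 0.

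In levels per gene length, the machinery covered a wide range. The highest member reached 335 FPKM (*Mcm2* in #1) and the lowest 0.533 FPKM (*Mcm9* in WT). In WT the first 3 genes by FPKM were *Pcna*, *Mcm7* and *Mcm3*. In #1 and #3 they were *Mcm2*, *Mcm3* and *Mcm5*, and in #2 they were *Mcm3*, *Mcm2* and *Mcm5*. *Mcm2* and *Mcm3* were at 288 ± 45.3 (SD, n = 3) and 239.7 ± 18.96 (SD, n = 3) FPKM in Thop1-KO, a difference close to the SD of *Mcm2*, and their order was not the same in every subclone. *Pola1*, *Mcm9* and *Orc4* were the lowest in the subclones, at 1.36 ± 0.475 (SD, n = 3), 1.27 ± 0.15 (SD, n = 3) and 1.72 ± 0.351 (SD, n = 3) FPKM. *Pola1* overlapped with both others, while *Mcm9* was below *Orc4* in each subclone. The coefficient of variation over the 3 subclones had a median of 15.99% over the members, from 2.64% for *Pole3* to 47.5% for *Orc3*, and 23.4% over 15017 of the genes tested.

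**Figure D2:**
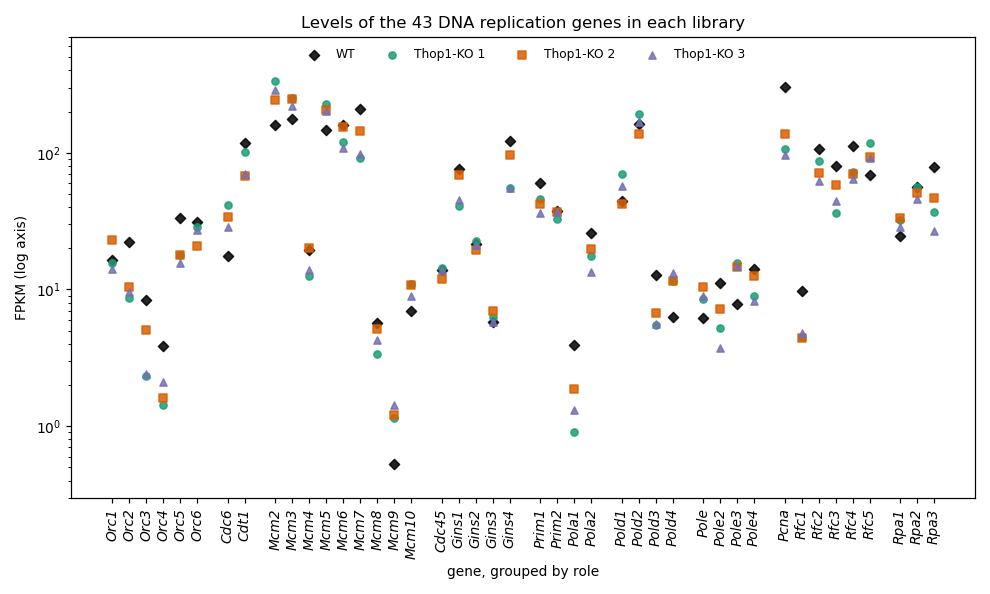
FPKM of the 43 genes in each of the 4 libraries (y axis, log scale), with genes on the x axis grouped by role. The MCM ring genes other than *Mcm4* are near the top in every library, and the WT diamond of *Pcna* at 301 FPKM stands above its 3 subclones.

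Among the origin recognition genes, which encode the complex that sits on start sites, 2 of 6 fell and the median log2 fold change of the 6 was -1.06. *Orc2* (ENSRNOG00000012558, chromosome 9, 65350627 to 65387169, minus strand in the deposited annotation, whose build is not given in the sources used here) had 68.1 CPM in WT and 26.4, 31.6 and 29.6 in subclones #1, #2 and #3. The subclones lay close together and all below WT. Its log2 fold change was -1.22 (SE 0.26, edgeR adjusted p = 0.0292, and 0.00167 to 0.139 over the alternatives), 2.33-fold lower. *Orc5* (ENSRNOG00000011519, chromosome 4, 9160067 to 9223997, plus strand) had 77.9 CPM in WT and 41.7, 41.7 and 36.7 in the subclones, a log2 fold change of -0.96 (SE 0.25, edgeR adjusted p = 0.0483). The call of *Orc5* is near the threshold and was lost without a filter on low counts (adjusted p = 0.0519 from edgeR, and 0.00635 to 0.23 over the alternatives). It was also lost with library size only, with limma at either pseudocount, with a 2-fold minimum, without #1 and without #3. *Orc3* was at 20.3 CPM in WT and 5.60, 12.3 and 5.96 in the subclones, with #2 about midway between WT and the other subclones, and *Orc4* at 6.39 CPM in WT and 2.39, 2.66 and 3.56 in the subclones. Their log2 fold changes were -1.35 and -1.15, with adjusted p-values of 0.109 and 0.123 from edgeR that did not pass. *Orc6*, the smallest subunit, had the highest mean level of the complex in Thop1-KO at 25.6 ± 4.17 (SD, n = 3) FPKM against 31.3 in WT, with a log2 fold change of -0.29, although *Orc1* exceeded it in #2. *Orc1*, the subunit whose protein comes and goes with the cell cycle, was inside the subclones' range, at 42.7 CPM in WT and 40.2, 59.1 and 36.7 in the subclones. The FPKM ratio of *Orc1* to *Orc2* was 0.739 in WT and 1.79, 2.20 and 1.46 in #1, #2 and #3.

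The genes of the loading factors lay on opposite sides of WT, and neither passed the test in edgeR. *Cdc6*, an ATPase that joins ORC to load the ring, was at 53.9 CPM in WT and 127, 105 and 89.4 in the subclones. WT lay below all subclones, and the log2 fold change was 0.99 (SE 0.30, edgeR adjusted p = 0.0724). *Cdt1*, which brings the ring to the origin and is held in check by geminin, was at 268 CPM in WT and 230.2, 155 and 160.2 in the subclones, with WT above all subclones and a log2 fold change of -0.56 (edgeR adjusted p = 0.216). The FPKM ratio of *Cdc6* to *Cdt1* was 0.148 in WT and 0.406, 0.499 and 0.41 in #1, #2 and #3, so the WT ratio lay below all 3 subclones. DESeq2 called *Cdc6*, with an adjusted p-value of 0.0297.

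The 6 genes of the helicase ring, *Mcm2* to *Mcm7*, encode subunits that are present once each in the ring, but their transcripts were not equal in level. Of the 9 MCM genes, 0 were called by edgeR, 3 were higher and 1 lower at an unadjusted p-value under 0.05, and DESeq2 called *Mcm2* alone, with an adjusted p-value of 0.0417. *Mcm2* was at 524 CPM in WT and 1099.8, 807 and 957 in subclones #1, #2 and #3. WT lay below every subclone, and the log2 fold change was 0.87 (SE 0.25, edgeR adjusted p = 0.0657). *Mcm5* was at 467 CPM in WT and 725, 663 and 653 in the subclones and *Mcm3* at 526 CPM in WT and 748, 735 and 656 in the subclones, again with WT below all subclones. Their log2 fold changes were 0.54 (adjusted p = 0.127) and 0.44 (adjusted p = 0.194), neither of which passed in edgeR. *Mcm7* was at 526 CPM in WT and 229, 363 and 248 in the subclones, with WT above every subclone, a log2 fold change of -0.91 (SE 0.29, edgeR adjusted p = 0.0829). The gene holds *Mir25*, *Mir93* and *Mir106b* in the deposited annotation. *Mcm6* was at 475 CPM in WT and 351, 459 and 325 in the subclones, with #2 near WT. *Mcm4* was at 65.3 CPM in WT and 42.3, 68.2 and 47.8 in the subclones, with WT inside the range of the subclones.

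Per gene length, *Mcm4* stood far below the rest of the ring in every library, at 19.3 FPKM in WT and 12.6, 20.2 and 13.95 in the subclones. The ratio of the highest to the lowest ring gene was 10.8 in WT and 26.6, 12.3 and 20.5 in #1, #2 and #3. The FPKM ratio of *Mcm2* to *Mcm7* was 0.759 in WT and 3.66, 1.70 and 2.94 in #1, #2 and #3. With the ring genes summed as *Mcm2*, *Mcm3* and *Mcm5* over *Mcm4*, *Mcm6* and *Mcm7*, a grouping chosen after the values were seen, the ratio was 1.24 in WT and 3.65, 2.18 and 3.21 in #1, #2 and #3. WT was lowest and #2 the nearest subclone to it. These ratios are descriptions, and no test was made of them.

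**Figure D3:**
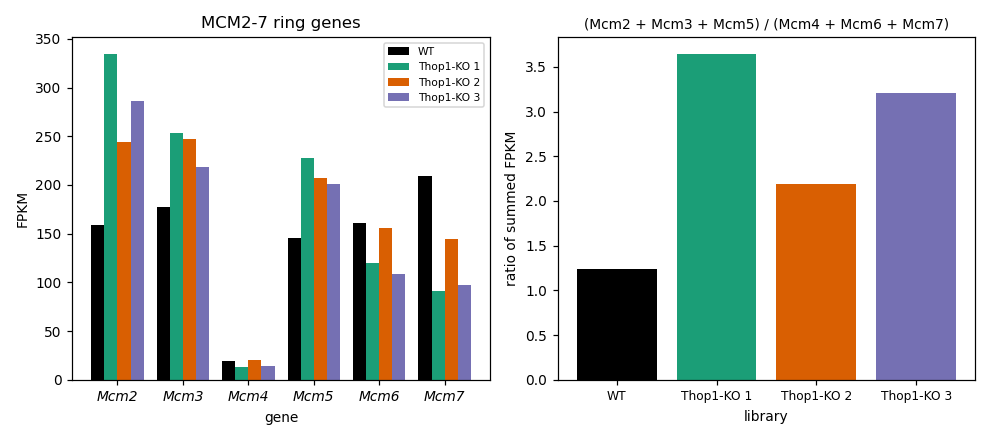
Left, FPKM (y axis) of the ring genes *Mcm2* to *Mcm7* (x axis) with 1 bar for each library. Right, the ratio of summed FPKM of *Mcm2*, *Mcm3* and *Mcm5* to that of *Mcm4*, *Mcm6* and *Mcm7* in each library, from 1.24 in WT to 3.65 in #1.

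Promoter letters are shown for the ring genes and for *Pcna*, because these genes share a textbook regulator while WT lay below the subclones in some of them and above in others. RefSeq windows on the GRCr8 assembly, from 250 bases before to 50 bases after the start, were matched by symbol for 37 of the 43 members. *Cdc6*, *Gins4*, *Mcm4*, *Orc1*, *Orc4* and *Rpa3* were not matched. Windows were searched on both strands for the E2F-type letters TTTCCCGC, TTTCGCGC, TTTGCCGC and TTTGGCGC. Of the 37 windows, 18 held at least 1 of them (48.6%), beside 2.25% of the 27457 genes with a window and 3.93% of the 9553 windows of other tested genes. The letters CCAAT were in 22 of the 37 (59.5%, beside 37.7% of all and 38.2% of other tested genes), and TTTGAA, the letters of the cell cycle homology region, in 3 (8.11%, beside 18.1% of all and 11.4% of other tested genes). E2F-type letters were in 5 of 13 matched members with a log2 fold change above 0 and in 13 of 24 with one below 0. A match is a description of letters and not of binding. The 250 bases before the start are given 5′ to 3′ on the strand of the gene, with E2F-type letters and CCAAT (or ATTGG, its reverse) in capitals.
Mcm2 (chr4:122918095-122918344, minus strand): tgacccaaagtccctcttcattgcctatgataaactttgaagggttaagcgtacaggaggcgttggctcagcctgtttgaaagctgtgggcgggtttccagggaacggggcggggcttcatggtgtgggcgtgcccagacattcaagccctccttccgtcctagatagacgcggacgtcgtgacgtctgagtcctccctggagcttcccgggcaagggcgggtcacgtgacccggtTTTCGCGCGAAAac
Mcm3 (chr9:30733747-30733996, minus strand): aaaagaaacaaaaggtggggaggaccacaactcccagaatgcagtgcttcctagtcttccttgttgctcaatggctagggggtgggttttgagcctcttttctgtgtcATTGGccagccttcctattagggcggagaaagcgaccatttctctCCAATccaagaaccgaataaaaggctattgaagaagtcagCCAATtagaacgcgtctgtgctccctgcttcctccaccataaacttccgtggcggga
Mcm5 (chr19:13488563-13488812, plus strand): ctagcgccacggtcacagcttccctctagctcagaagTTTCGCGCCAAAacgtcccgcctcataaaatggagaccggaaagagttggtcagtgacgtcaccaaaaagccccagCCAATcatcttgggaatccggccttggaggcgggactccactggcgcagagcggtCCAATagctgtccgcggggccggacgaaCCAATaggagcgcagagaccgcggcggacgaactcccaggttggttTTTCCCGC
Mcm6 (chr13:42404353-42404602, minus strand): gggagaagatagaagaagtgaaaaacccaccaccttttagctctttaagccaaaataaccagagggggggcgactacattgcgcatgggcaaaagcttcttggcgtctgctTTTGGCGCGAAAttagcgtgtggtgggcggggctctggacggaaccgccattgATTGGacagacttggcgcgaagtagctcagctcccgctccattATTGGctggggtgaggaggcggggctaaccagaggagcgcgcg
Mcm7 (chr12:22163179-22163428, minus strand): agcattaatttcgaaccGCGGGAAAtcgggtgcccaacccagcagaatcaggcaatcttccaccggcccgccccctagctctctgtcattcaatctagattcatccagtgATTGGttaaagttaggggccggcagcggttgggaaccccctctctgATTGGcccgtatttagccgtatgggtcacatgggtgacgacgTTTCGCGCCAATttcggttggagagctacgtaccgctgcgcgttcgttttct
Pcna (chr3:139955821-139956070, minus strand): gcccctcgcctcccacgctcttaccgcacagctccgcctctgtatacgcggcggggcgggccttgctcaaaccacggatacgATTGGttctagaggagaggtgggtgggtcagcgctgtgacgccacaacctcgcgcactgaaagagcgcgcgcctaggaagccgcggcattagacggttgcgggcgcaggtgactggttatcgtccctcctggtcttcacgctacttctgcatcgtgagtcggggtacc

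In *Mcm2*, E2F-type letters on both strands overlap in 1 stretch that begins at position -14, counted back from the start. *Mcm6* has such an overlap at position -139, with CCAAT letters after it. *Mcm7* has E2F-type letters at position -52 that run into a CCAAT box, and *Mcm5* has them at position -213 and again at -8. In *Mcm3* the stretch shown holds CCAAT alone, and its E2F-type letters lie across and after the start. *Pcna*, the member with the smallest p-value, shows a CCAAT box and none of the E2F-type letters searched. Genes with these letters lay on both sides of WT, *Mcm2* and *Mcm5* with WT below all subclones and *Mcm7* with WT above them.

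The remaining MCM genes do not belong to the ring and were expressed at lower levels. *Mcm10*, which acts as the helicase is switched on, was at 35.9 CPM in WT and 55.3, 55.5 and 46.3 in the subclones, with WT below all subclones (log2 fold change 0.55, edgeR adjusted p = 0.211). *Mcm8* and *Mcm9* form a helicase of recombination repair. *Mcm8* was at 18.6 CPM in WT and 10.97, 16.9 and 14.1 in the subclones. *Mcm9* was at 3.30 CPM in WT and 7.10, 7.52 and 9.02 in the subclones, the largest positive log2 fold change of the set at 1.25 (SE 0.42, edgeR adjusted p = 0.091), which did not pass. *Mcm9* overlaps *Asf1a* on the other strand, a gene with 908 counts in WT against 49 for *Mcm9*, so the counts of *Mcm9* are uncertain.

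Of the activating factors, 0 of 5 were called by edgeR, with 0 at an unadjusted p-value under 0.05 and 0 by DESeq2 or limma. *Cdc45* was at 90.6 CPM in WT and 93.2, 77.6 and 90.7 in the subclones and *Gins2* at 90.7 CPM in WT and 95.6, 82.6 and 91.1 in the subclones, each with WT inside the range of the subclones. *Gins4*, the highest of the complex per length, was at 122 FPKM in WT and 54.9, 95.9 and 55.1 in the subclones, and *Gins1* at 76.4 FPKM in WT and 40.9, 68.8 and 45.3 in the subclones. In both, #2 lay close to WT and the other subclones well below it. *Gins3* was the lowest at 5.81 FPKM in WT and 6.32, 7.01 and 5.74 in the subclones. The log2 fold changes were -0.83 for *Gins4*, -0.56 for *Gins1* and 0.13 for *Gins3*, the last of which turned to -0.13 with a correction for gene length.

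All 4 genes of primase and polymerase alpha had WT above every subclone, and 0 of them passed the test in edgeR (1 at an unadjusted p-value under 0.05). *Pola1*, the catalytic subunit of polymerase alpha, was at 21.3 CPM in WT and 4.89, 10.01 and 7.12 in subclones #1, #2 and #3. It was among the lowest members per length, and its log2 fold change of -1.53 was the largest negative one of the set (SE 0.43, edgeR adjusted p = 0.0589). DESeq2 called it, with an adjusted p-value of 0.0198. *Pola2*, its regulatory subunit, was at 69.4 CPM in WT and 46.9, 53.2 and 36.2 in the subclones (log2 fold change -0.61). *Prim1*, the catalytic primase subunit, was at 96.8 CPM in WT and 74.3, 67.7 and 59.7 in the subclones (log2 fold change -0.53). *Prim2*, the large primase subunit, was at 82.8 CPM in WT and 72.6, 82.1 and 82.4 in the subclones, so that WT stood apart from #2 and #3 by very little (log2 fold change -0.07).

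Polymerase delta, which extends the lagging strand, had 1 gene that fell. *Pold3* (ENSRNOG00000018411, chromosome 1, 165083622 to 165123455, minus strand), an accessory subunit that binds PCNA, had 55.3 CPM in WT and 23.8, 29.3 and 24.6 in subclones #1, #2 and #3. The subclones were close together and all below WT. Its log2 fold change was -1.09 (SE 0.27, edgeR adjusted p = 0.0429, and 0.00308 to 0.198 over the alternatives). The call was lost with library size only, with limma at either pseudocount, without #1 and without #3. *Pold1*, the catalytic subunit, was at 187 CPM in WT and 294, 177 and 242 in the subclones and *Pold2* at 278 CPM in WT and 325, 233 and 294 in the subclones, both with WT inside the range of the subclones. The FPKM ratio of *Pold1* to *Pold3* was 3.52 in WT and 12.8, 6.27 and 10.2 in #1, #2 and #3. *Pold4*, the smallest subunit, was at 5.38 CPM in WT and 9.78, 9.79 and 11.4 in the subclones, with WT below every subclone (log2 fold change 0.94, edgeR adjusted p = 0.134).

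The genes of polymerase epsilon, the leading strand enzyme, were divided, and 0 of 4 were called by edgeR, DESeq2 or limma, with 1 lower at an unadjusted p-value under 0.05. *Pole*, the catalytic subunit, was at 44.3 CPM in WT and 60.5, 74.9 and 64.8 in the subclones with WT below all subclones (log2 fold change 0.59, edgeR adjusted p = 0.176). *Pole2*, the subunit that binds it, was at 19.2 CPM in WT and 8.94, 12.3 and 6.51 in the subclones with WT above them (log2 fold change -1.06, edgeR adjusted p = 0.125). The histone-fold subunits also differed in direction. *Pole3* was at 3.50 CPM in WT and 6.86, 6.50 and 6.68 in the subclones and *Pole4* at 37.3 CPM in WT and 23.4, 32.9 and 22.04 in the subclones, with log2 fold changes of 0.93 and -0.52. *Pole3* spans 438 bases of exon in the annotation and held at most 120 counts in a library. Its annotated locus (chromosome 7, 118816218 to 118816655, minus strand) is no longer than that exon and so holds no intron. Whether its counts stand for the gene of the polymerase subunit was not tested.

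The clamp and its loader held 2 of the 5 genes that fell. *Pcna* (ENSRNOG00000021264, chromosome 3, 124880698 to 124884570, minus strand), the sliding clamp, had 354 CPM in WT and 124, 162 and 114 in subclones #1, #2 and #3. The subclones stood at 31.8% to 45.9% of the WT FPKM, with #2 the nearest. The log2 fold change was -1.41 (SE 0.26, edgeR adjusted p = 0.021, and 6.93e-05 to 0.0872 over the alternatives), 2.65-fold lower, and in FPKM *Pcna* stood at 301 in WT and 113 ± 22.2 (SD, n = 3) in Thop1-KO. *Rfc1* (ENSRNOG00000002855, chromosome 14, 44580216 to 44702203, plus strand), the large subunit of the loader, had 46.4 CPM in WT and 21.4, 21.1 and 23.2 in the subclones. Its subclones differed by far less than their distance from WT, and the log2 fold change was -1.08 (SE 0.26, edgeR adjusted p = 0.0421, and 0.00785 to 0.183 over the alternatives). The call of *Rfc1* was lost in the same alternatives as that of *Pold3*.

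The small loader subunits *Rfc2*, *Rfc3* and *Rfc4* had WT above all subclones, with log2 fold changes of -0.54, -0.78 and -0.72 and adjusted p-values of 0.189, 0.125 and 0.0798 from edgeR that did not pass. *Rfc3* was at 105 CPM in WT and 47.7, 75.8 and 59.5 in the subclones and *Rfc4* at 135 CPM in WT and 85.6, 83.9 and 77.97 in the subclones. *Rfc5*, another small subunit, went the other way, at 147 CPM in WT and 249, 199 and 197 in the subclones (log2 fold change 0.55, edgeR adjusted p = 0.184). The FPKM ratio of *Rfc5* to *Rfc1* was 7.16 in WT and 26.2, 21.3 and 19.1 in #1, #2 and #3.

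Of the genes of RPA, the single-strand binding trimer, 0 of 3 were called by edgeR, with 1 lower at an unadjusted p-value under 0.05. *Rpa3*, the smallest subunit, was at 49.5 CPM in WT and 22.8, 29.1 and 16.97 in the subclones, with WT above all subclones and a log2 fold change of -1.11 (SE 0.34, edgeR adjusted p = 0.0756). DESeq2 called it, with an adjusted p-value of 0.0395. *Rpa2* was the highest per length in Thop1-KO, at 50.8 ± 5.14 (SD, n = 3) FPKM against 56.5 in WT. *Rpa1*, the large DNA-binding subunit, was at 151 CPM in WT and 199, 204 and 177 in the subclones, with WT below the subclones (log2 fold change 0.36, and -0.04 with a correction for gene length).

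**Figure D4:**
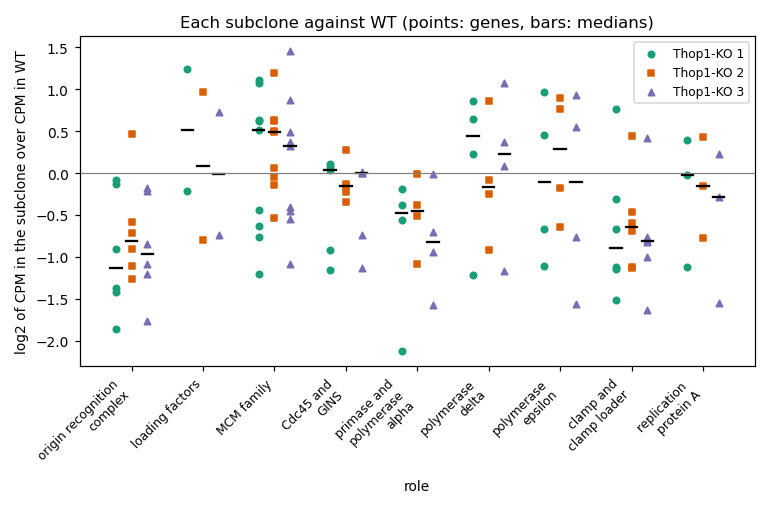
Log2 of the CPM of each subclone over the CPM of WT (y axis) for the 43 genes, by role (x axis), with 1 point for a gene in a subclone and a short bar at the median. Most points of the origin recognition complex, of primase and polymerase alpha and of the clamp and its loader lie below 0 in all 3 subclones.

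The subclones did not differ from WT by the same amount. The median log2 ratio of the members to WT was -0.31 in #1, -0.18 in #2 and -0.45 in #3, and over all genes tested it was between 0.00 and 0.04. Subclone #2 was the nearest of the 3 to WT in 20 of the 43 members (46.5%), and in 46.3% of all genes tested. *Gins1*, *Gins4*, *Mcm6*, *Mcm7*, *Orc3* and *Rfc3* were examples, each with #2 between WT and the other subclones.

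Genes that work beside the core machinery were read from a further list of 49, of which 48 were tested and 1 was not analysed here. Here 8 rose and 5 fell by that same edgeR criterion (16.7% and 10.4%, beside the 8.62% and 5.17% of all genes tested). The median log2 fold change was 0.11. Without #2 the counts were 13 and 9, and without #3 they were 2 and 0. With a correction for gene length, 4 were called higher. *Lig1* and *Rrm2*, both higher, were called in every alternative run, whereas 0 of the 5 lowered genes were. The edgeR adjusted p-values ran from 0.00705 to 0.0486 for the genes that rose and from 0.0196 to 0.042 for those that fell.

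*Lig1*, the ligase that seals lagging strand fragments, had 5.99 CPM in WT and 53.4, 54.3 and 46.4 in subclones #1, #2 and #3. WT lay far below 3 closely spaced subclones, 8.57-fold, with a log2 fold change of 3.10 (SE 0.34, edgeR adjusted p = 0.00705). *Rrm2*, the small subunit of ribonucleotide reductase that makes the DNA building blocks, had 62.1 CPM in WT and 485, 364 and 316 in the subclones. That is 6.25-fold, a log2 fold change of 2.64 (SE 0.35, edgeR adjusted p = 0.00926). *Rrm1*, the large subunit of the same enzyme, was at 121 CPM in WT and 109, 139.8 and 102 in the subclones, with WT inside their range. *Dck*, the deoxycytidine kinase of the salvage route, also rose, from 3.10 CPM in WT to 9.48 ± 1.11 (SD, n = 3) in Thop1-KO. The call of *Dck* was lost with upper-quartile scaling, without a filter on low counts, without #1 and without #3.

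Licensing and firing factors supplied 3 of the risen genes. *Topbp1*, a scaffold for helicase activation, was at 6.12 CPM in WT and 18.4, 21.7 and 18.7 in the subclones, a log2 fold change of 1.68. *Recql4*, a helicase of the same step, was at 24.4 CPM in WT and 70.2, 56.3 and 79.9 in the subclones, a log2 fold change of 1.49. *Cdk2*, the S phase kinase, was at 16.6 CPM in WT and 39.4, 34.3 and 42.02 in the subclones, a log2 fold change of 1.21. Their adjusted p-values were 0.0307, 0.0309 and 0.0456 from the edgeR test. All 3 calls were lost with the length correction (edgeR adjusted p = 0.0508, 0.0733 and 0.0774) and without #3 (edgeR adjusted p = 0.130, 0.131 and 0.210). Those of *Topbp1* and *Recql4* were also lost with limma on log2(FPKM + 1), and that of *Cdk2* with upper-quartile scaling and without #1. *Ticrr*, a further firing factor, had WT at 31.6 CPM below 66.8 ± 9.03 (SD, n = 3) in Thop1-KO (edgeR adjusted p = 0.0545). *Gmnn*, which encodes the Cdt1 inhibitor geminin, was at 70.99 CPM in WT and 25.3, 43.95 and 25.7 in the subclones. Its edgeR adjusted p-value was 0.0783. Neither gene passed in edgeR, whereas DESeq2 called *Ticrr* higher and *Gmnn* lower, with adjusted p-values of 0.0153 and 0.0310. *Ticrr* was also called with library size only, without a filter on low counts and without #2. *Gmnn* was also called without #2. The other alternatives did not call them.

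The other risen genes were *Ddb1*, part of the ubiquitin ligase that removes Cdt1 on PCNA-bearing DNA, and *Uhrf1*, which guides maintenance methylation behind the fork. *Ddb1* was at 571 CPM in WT and 1559, 1154 and 1364 in the subclones (log2 fold change 1.25) and *Uhrf1* at 331 CPM in WT and 917, 852 and 837 in the subclones (log2 fold change 1.39). The call of *Ddb1* was lost with the length correction and without #3, and that of *Uhrf1* without #3. The genes that fell were *Dscc1*, part of an alternative clamp loader, *Rnaseh2b*, a subunit of the enzyme that removes ribonucleotides, the topoisomerases *Top2a* and *Top2b*, and *Cul4b*, a scaffold of the ligase with Ddb1. *Dscc1* was at 50.8 CPM in WT and 12.6, 17.99 and 11.5 in the subclones (log2 fold change -1.86), *Rnaseh2b* at 80.4 CPM in WT and 28.2, 34.4 and 26.8 in the subclones (-1.43 on the log2 scale) and *Top2a* at 172 CPM in WT and 79.9, 72.2 and 97.8 in the subclones (-1.05 on the log2 scale). In each of these 3, WT lay above every subclone. *Top2b* was at 18.8 CPM in WT and 4.11, 5.94 and 7.29 in the subclones (-1.70 on the log2 scale) and *Cul4b* at 158 CPM in WT and 80.02, 88.2 and 82.4 in the subclones (-0.92 on the log2 scale).

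**Figure D5:**
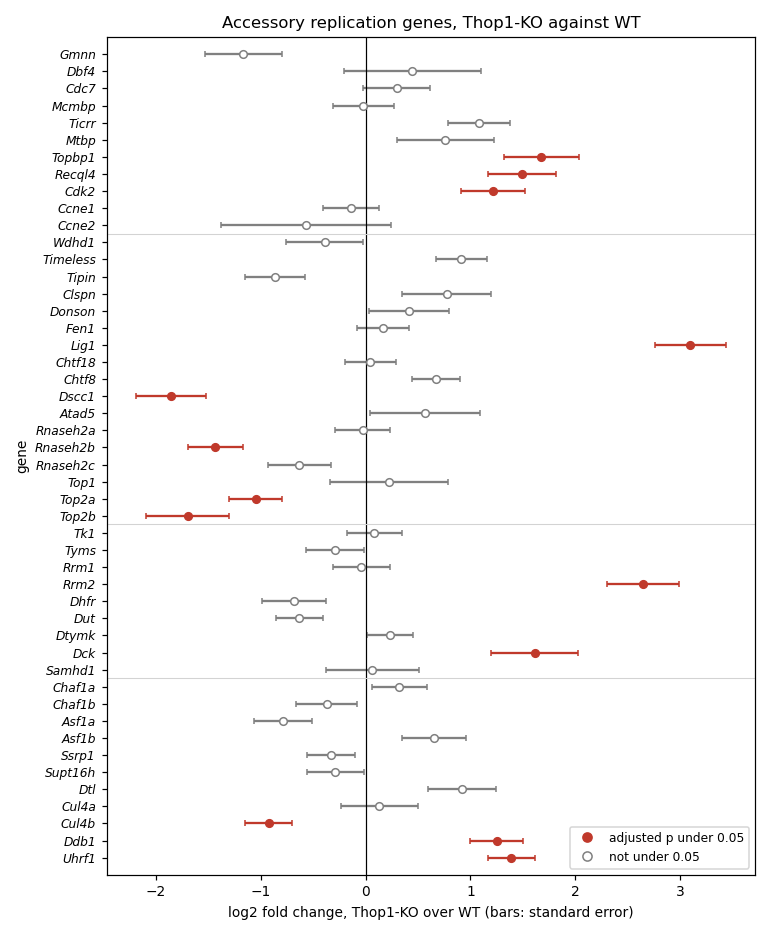
Log2 fold change of the 48 accessory genes, Thop1-KO over WT (x axis), with genes on the y axis in 4 blocks (licensing and firing, fork, nucleotide supply, chromatin and degradation) and bars of 1 standard error from edgeR. *Lig1* and *Rrm2* lie farthest to the right, at 3.10 and 2.64, and 13 points are filled.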

How the data were processed

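Poly(A) RNA-seq libraries of 1 WT and 3 Thop1-KO rat ESC cultures were compared as labelled. The authors deposited read counts per gene and FPKM in separate tables. The submitters' processing notes name HISAT2 2.0.5 and featureCounts 1.5.0-p3, and the genome build of the gene coordinates and the strand setting are not given in the sources used here. The deposited FPKM equal the deposited counts divided by gene length and by a factor proportional to DESeq2's size factor.

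Counts were fitted over all genes with edgeR 4.0.16 (R 4.3.3) by the quasi-likelihood test, with TMM normalization and filterByExpr at a minimum count of 10, which left 15028 of 34773 genes. P-values were adjusted by Benjamini-Hochberg over all genes tested, with a threshold of 0.05. With 1 WT library the spread is that between subclones. Standard errors are the log2 fold change divided by the square root of F. The procedure was tested on simulated data. The simulation gave WT the same dispersion as the subclones, so it cannot speak to the unmeasured spread of WT. DESeq2 1.42.0, limma 3.58.1 (log2 FPKM, pseudocounts 1 or 0.1), 3 other scalings, 2 other filters, a loess correction for gene length, a 2-fold minimum and leaving out each subclone were alternatives.

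The members and lists (accessory replication genes, markers of ESCs, fibroblasts, primitive endoderm, trophoblast, and neural cells and mesoderm) were chosen with earlier results of these data known. The rule for per-library values was an unadjusted p-value under 0.05, or being the highest or lowest member of a role. Such values were also given for many members outside this rule, among them *Mcm3*, *Mcm6*, *Orc1*, *Pold1* and *Rfc5*. *Orc6* and *Rpa2*, which met it, have a mean and SD instead. Accessory genes were named where the adjusted p-value passed. The other accessory genes named (*Rrm1*, *Ticrr*, *Gmnn*) and the gene ratios were chosen after their values were seen. Levels of different genes were compared in FPKM. The lowest member count in a library was 40. Promoter sequences are from RefSeq (GRCr8), with the first listed window for each symbol. *Mcm7*, *Pola2*, *Pold2*, *Mcm9* and 4 other members overlap another annotated gene.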

Additional observations from a re-analysis of the deposited data

How the results depend on the processing

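Of 43 members, 0 were called higher and 5 lower. Higher calls numbered 1 with library size only, 2 with DESeq2 and 0 to 5 with a subclone left out. Lower calls numbered 2 with library size only, 2 with limma at either pseudocount and 0 to 15 with a subclone left out (2 without #1, 15 without #2, 0 without #3). Over all genes, 1295 higher calls became 1987 with DESeq2 and 354 to 3096 with a subclone left out, and 777 lower calls became 103 to 2476. Of the accessory genes, 8 higher calls became 4 with the length correction and 2 to 13 with a subclone left out, and 5 lower calls became 2 with limma at either pseudocount and 0 to 9 (3 without #1). The members' median of -0.33 became -0.57 with the length correction, which moved the median of all genes by -0.14, and -0.49 to -0.27 with a subclone left out. Relative to all genes the members' median was between -0.53 and -0.31 under the alternatives run. Higher calls made up 62.5% of all calls, and 52.7% with the length correction, 53.9% with limma at a pseudocount of 1 and 77.5% without #3. Among the 41 genes read singly under each alternative, signs turned for *Gins3* (-0.13), *Rpa1* (-0.043) and *Pold2* (-0.061) with the length correction. The sign of *Pold2* also turned with upper-quartile scaling (-0.076) and with a subclone left out (-0.069 without #1 to 0.15 without #2). Of the other members, *Orc1*, *Cdc45*, *Gins2* and *Prim2* had log2 fold changes on both sides of 0 over the alternatives. The causes were not tested. Of 533 single-gene values under alternatives, 458 kept direction and side of the threshold, 51 lost and 19 gained significance. No paired analysis was possible because the single WT library carries no replicate number that a subclone shares. WT has 1 library, so its own spread was not measured. The largest standard errors among the members were 0.49 for *Orc3* and 0.44 for *Orc4*.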

Other observations

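The summed FPKM of the 43 members was 2606 in WT and 2376, 2327 and 2083 in subclones #1, #2 and #3. Over all genes tested the summed FPKM was 825150 in WT and 720884, 640128 and 660041 in the subclones. In CPM the members summed to 5811 in WT and 6046, 5752 and 5387 in the subclones, with WT inside their range. Across the 43 members the Spearman correlation of log2 fold change with exon length was 0.25, and across the 15028 genes tested it was 0.20. Both are descriptions across genes of the same 4 libraries, and genes are not independent replicates. With the level in WT (FPKM) the log2 fold change of the 43 members had a Spearman correlation of -0.10.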
